A study of Mus musculus with 4 samples.

Results

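The nuclei described here carried RNA of Nr5a1, Fezf1 or both, a pair of transcription factor genes that mark glutamatergic neurons of the ventromedial nucleus of the hypothalamus, which borders the arcuate nucleus (ARC). A nucleus was a member when it held at least 2 unique molecular identifiers (UMIs, counted RNA molecules) of Nr5a1 and Fezf1 together and at least 1 UMI of Slc17a6, the vesicular glutamate transporter of hypothalamic excitatory neurons. The members were thus chosen by their measured counts of these 3 genes. The rule found 1630 members among 39176 kept nuclei, which is 4.16% of them, and the members were compared with 9767 nuclei that held Slc17a6 but no UMI of Nr5a1 or Fezf1. The gate genes were Nr5a1 (chr2:38692656-38714542), Fezf1 (chr6:23245044-23248362) and Slc17a6 (chr7:51622006-51671119, all in GRCm38 by the GENCODE annotation). Their counts in members are description, and no test of members against comparison nuclei is read from them. Nr5a1 and Fezf1 were among the genes tested for treatment within members, and neither passed. Every member was chosen by these counts, so no treatment result is read from them.

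RNA was counted in single nuclei from ARC punches of male wildtype C57BL/6J mice, all 10 weeks old. The DOCA-salt group received deoxycorticosterone acetate, a mineralocorticoid, together with saline to drink for 3 weeks, and the Sham group received the sham treatment for the same 3 weeks. Nuclei of individual mice were pooled within a treatment before library preparation, which gave 2 DOCA-salt and 2 Sham libraries, and the pool is the replicate. Where 4 values follow each other, they stand for DOCA-salt 1, DOCA-salt 2, Sham 1 and Sham 2 in this order. The libraries held 45126915, 79437196, 53257230 and 59293582 UMIs in 10765, 19754, 2805 and 8325 barcodes.

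Nr5a1 encodes steroidogenic factor 1 (SF-1), a nuclear receptor that in the brain is largely restricted to the ventromedial nucleus and is needed for that nucleus to form. Fezf1 encodes a zinc finger repressor of forebrain development that is also made in these cells. SF-1 neurons release glutamate, respond to glucose, leptin and insulin, and take part in energy balance, defensive behaviour and, in an Esr1-containing ventrolateral division, mating and aggression.

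The gate held 255, 840, 173 and 362 members in the 4 libraries. As a share of kept nuclei this was 2.47% (95% exact binomial interval 2.18 to 2.79) in DOCA-salt 1 and 4.44% (4.15 to 4.75) in DOCA-salt 2. The share was 7.85% (6.76 to 9.06) in Sham 1 and 4.67% (4.21 to 5.16) in Sham 2, and these intervals cover counting error only. Both Sham shares lay above both DOCA-salt shares, with means of 3.46% ± 1.39 (SD, n = 2) for DOCA-salt and 6.26% ± 2.25 (SD, n = 2) for Sham. The difference, DOCA-salt minus Sham, was -2.80 percentage points, with p = 0.33 in a two-sided exact permutation test over libraries, which is the smallest p that 2 against 2 libraries allow. It was -1.82 points without DOCA-salt 1, -1.21 without Sham 1, -4.39 without Sham 2 and -1.53 with 3 or more UMIs of Nr5a1 and Fezf1 required.

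The order of the shares changed with the denominator and with depth. Among nuclei with a Slc17a6 UMI, members made up 8.22%, 14.9%, 11.2% and 11.5%, so that the Sham values lay between the DOCA-salt values. When every nucleus was thinned to 2000 UMIs before the gate, leaving out shallower nuclei, the shares were 0.712%, 1.14%, 0.233% and 0.607%, and the DOCA-salt shares were then the higher ones. Members were deep nuclei, with median UMIs of 7110, 7300, 15430 and 10599.5, against 3957, 3579.5, 8568 and 5507 in the comparison nuclei. The upper limits on genes and UMIs removed 37, 96, 303 and 139 nuclei that met the gate, or 12.7%, 10.3%, 63.7% and 27.7% of such nuclei. Without the upper limits the shares were 2.78%, 4.88%, 17.0% and 6.10%, a difference of -7.71 percentage points, so the lower DOCA-salt shares were present with and without these limits.

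**Figure D1:**
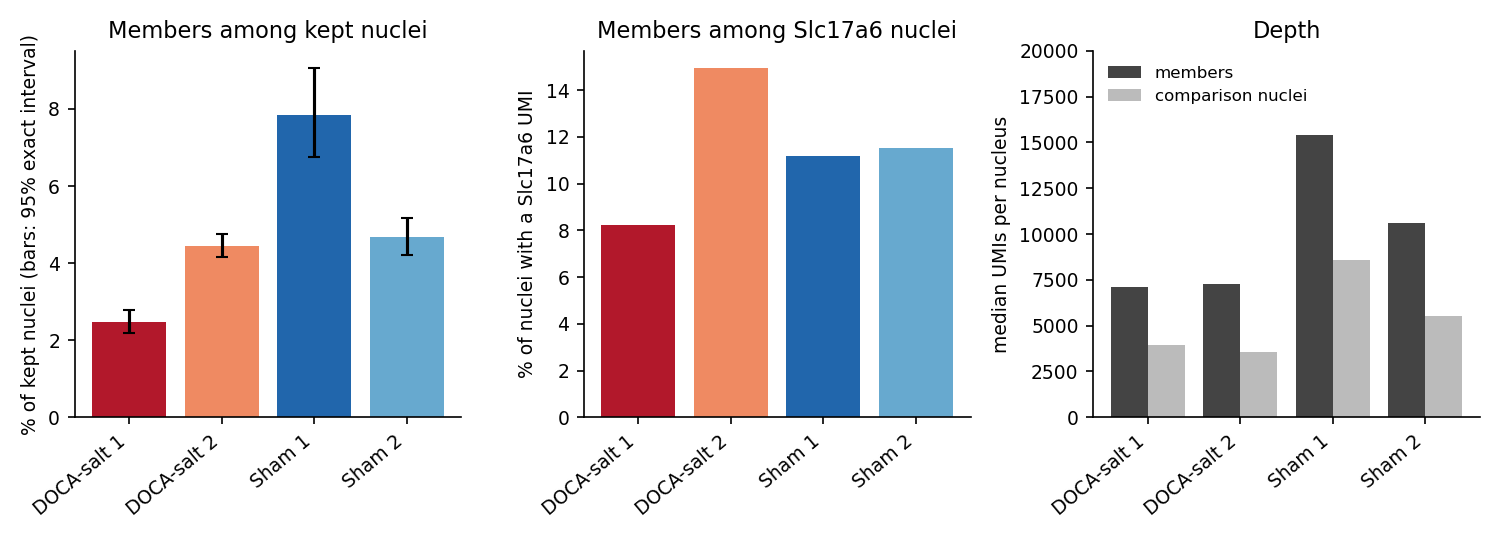
Left, members in % of kept nuclei with 95% exact binomial intervals. Middle, members in % of nuclei with a Slc17a6 UMI. Right, median UMIs per nucleus in members (dark) and comparison nuclei (light). Sham 1 has the highest share of kept nuclei (7.85%) and the deepest members (15430 UMIs), while DOCA-salt 2 has the highest share of Slc17a6 nuclei (14.9%).

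The gate genes were sparse. Members held at most 11 UMIs of Nr5a1 and Fezf1 together, and the median was 2 in DOCA-salt 1, DOCA-salt 2 and Sham 1 and 3 in Sham 2. Both genes were present in 97, 376, 86 and 180 members of the 4 libraries, 739 in all, while 215 members held Nr5a1 without Fezf1 and 676 held Fezf1 without Nr5a1. Members accounted for 50.5%, 54.2%, 57.7% and 70.1% of all Nr5a1 UMIs in kept nuclei and for 5.97%, 10.8%, 12.2% and 10.6% of all UMIs. The remaining Nr5a1 UMIs lay in nuclei that did not meet the rule.

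The gate had a background in nuclei of another kind, and the part of free RNA in it was not tested. Among oligodendrocyte nuclei, taken as nuclei with 2 or more UMIs of Mog and Mag and none of Slc17a6, 1.08%, 2.01%, 3.70% and 0.225% held 2 or more UMIs of Nr5a1 and Fezf1. Among Slc17a6 nuclei the shares were 8.22%, 14.9%, 11.2% and 11.5%. The oligodendrocyte nuclei were shallower, with median UMIs of 1608, 2121.5, 6567 and 2349 against 4281, 4255, 9732 and 6229. The share in Slc17a6 nuclei exceeded the oligodendrocyte share in all 4 libraries. A further 224 nuclei held 2 or more gate UMIs without Slc17a6 and were not members.

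The other genes supplied as markers of these nuclei were higher in members than in the comparison nuclei of every library, as a description, since they were named together with the rule. Lbhd2, a gene of little known function, was at 130, 224, 106 and 138 CPM (the gene's UMIs scaled to a common total per summed library) in members and at 49.1, 80.8, 50.5 and 37.7 CPM in comparison nuclei. Nptx2, a secreted pentraxin that gathers AMPA receptors at excitatory synapses, was at 102, 74.1, 49.1 and 85.2 CPM in members and at 32.1, 34.0, 20.9 and 25.9 CPM in comparison nuclei. Rasgrf2, a calcium-regulated Ras exchange factor, was at 577, 612, 466 and 651 CPM against 257, 361, 253 and 269 CPM. For each of the 3 genes all member values lay above all comparison values.

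By shares of nuclei Lbhd2 was also higher in members, as a description, since it was supplied with the rule. It had a UMI in 57.6%, 69.5%, 70.5% and 66.3% of members, in 19.6%, 26.4%, 35% and 19.4% of comparison nuclei and in 4.8%, 14.3%, 33.3% and 8.1% of oligodendrocyte nuclei. With all nuclei thinned to 2000 UMIs, the Lbhd2 shares were 25.5%, 36.4%, 18.5% and 20.4% in members, 8.5%, 15.6%, 10.4% and 7.0% in comparison nuclei and 2.6%, 8.7%, 14.1% and 2.6% in oligodendrocyte nuclei. In Sham 1 the thinned Lbhd2 share of comparison nuclei was below that of oligodendrocyte nuclei and reads as background there. The members' thinned share in Sham 1, 18.5%, was also near the 14.1% of oligodendrocyte nuclei.

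The threshold cut through a continuous range. Exactly 2 gate UMIs were held by 140, 470, 97 and 154 members, and exactly 1 by 316, 1011, 343 and 343 Slc17a6 nuclei just outside. Lbhd2 was at 121, 195, 90.0 and 115 CPM just inside and at 110, 161, 65.3 and 74.9 CPM just outside. Nptx2 was at 102, 69.6, 44.6 and 77.4 CPM just inside and at 74.7, 54.0, 26.0 and 54.7 CPM just outside. The nuclei just outside thus lay between the members and the comparison nuclei for both genes in every library.

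Members and comparison nuclei were then compared gene by gene within libraries, on the summed UMI counts of each class. The 3 supplied markers Lbhd2, Nptx2 and Rasgrf2 were among the genes tested and among those higher, though they were named together with the rule. Of 14173 genes tested, 1306 were higher in members (9.21%) and 993 lower (7.01%) at a false discovery rate (FDR) under 0.05 in edgeR's quasi-likelihood test with the library as a block. The 4 libraries moved in 1 direction in 36.3% of tested genes. When nuclei were thinned to 2000 UMIs, 900 genes passed, of which 850 were among the 2299 of the full data. Without the library block 35 passed.

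Besides Lbhd2 and Nptx2, the genes with the largest differences on the high side were Megf11, Nrgn, Lmo3, Gda, Cbln1, Rasal1, Myh7 and Camk1g, all higher in 4 of 4 libraries, with adjusted p from 4.54e-08 for Lmo3 to 1.22e-06 for Myh7. Megf11, a transmembrane protein that spaces neurites of like neurons, was at 76.9, 75.6, 32.5 and 77.5 CPM in members and 26.0, 31.9, 16.6 and 22.9 CPM in comparison nuclei, a log2 difference of 1.46 (SE 0.0999). Nrgn, neurogranin, a postsynaptic calmodulin-binding protein, was at 559, 453, 533 and 760 CPM against 237, 193, 247 and 181 CPM, a log2 difference of 1.45 (SE 0.11). Every member library lay above every comparison library in both genes. Lmo3, a LIM-only transcriptional cofactor, differed by 1.45 (SE 0.0882) on the log2 scale, with 175, 161, 121 and 170 CPM in members. Gda, the guanine deaminase cypin, differed by 1.38 (SE 0.112), with 547, 285, 340 and 659 CPM in members and 232, 126, 179 and 167 CPM in comparison nuclei.

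Cbln1, a secreted synapse organiser, differed by 1.30 (SE 0.0913) on the log2 scale. Its members were at 180, 289, 149 and 154 CPM against 62.3, 143, 75.8 and 50.1 CPM, and all 4 member values exceeded the highest comparison value. Rasal1, a Ras GTPase activating protein, Myh7, a slow myosin heavy chain, and Camk1g, a calmodulin-dependent kinase, differed by 1.28, 1.27 and 1.23. Among genes of lower abundance, chosen after their values were seen, Hmcn2, a basement membrane hemicentin, had a log2 difference of 2.35 (SE 0.181), Gpr149, an orphan receptor, 1.95 (SE 0.144) and Glra1, a glycine receptor subunit, 1.69 (SE 0.136).

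On the low side the named genes were Oxt, Avp, Cbln2, Tac2, C1ql3, Nts, Pmch, Asb4, Dgkk and Necab1, all lower in 4 of 4 libraries, with adjusted p up to 0.000491 for Pmch. Cbln2, a synapse organiser of the same family as Cbln1, was at 13.9, 20.1, 32.5 and 20.8 CPM in members and 40.6, 63.6, 65.3 and 82.3 CPM in comparison nuclei, a log2 difference of -1.55 (SE 0.108). Tac2, which encodes neurokinin B, was at 27.7, 30.5, 33.2 and 21.2 CPM in members and 125, 66.1, 62.9 and 95.3 CPM in comparison nuclei, a log2 difference of -1.51 (SE 0.143). In both genes every member library lay below every comparison library. Members thus had more Cbln1 and less Cbln2 than other Slc17a6 nuclei. Nts, the neurotensin gene, and C1ql3, a C1q-like synaptic protein, differed by -1.15 and -1.27 on the log2 scale.

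The peptides of magnocellular and lateral hypothalamic neurons varied widely between libraries. Oxt, oxytocin, was at 1.34, 155, 76.5 and 157 CPM in members and 6.87, 1750, 187 and 534 CPM in comparison nuclei, a log2 difference of -2.32 (SE 0.251). Pmch, melanin-concentrating hormone, was at 1.34, 2290, 12.4 and 6.44 CPM in members and 11.1, 3615, 72.3 and 28.6 CPM in comparison nuclei. It was high in DOCA-salt 2 in both classes, and oligodendrocyte nuclei of that library held 1570 CPM of Pmch and 889 CPM of Oxt. The part of free RNA in the members' level of these peptides was not tested.

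**Figure D2:**
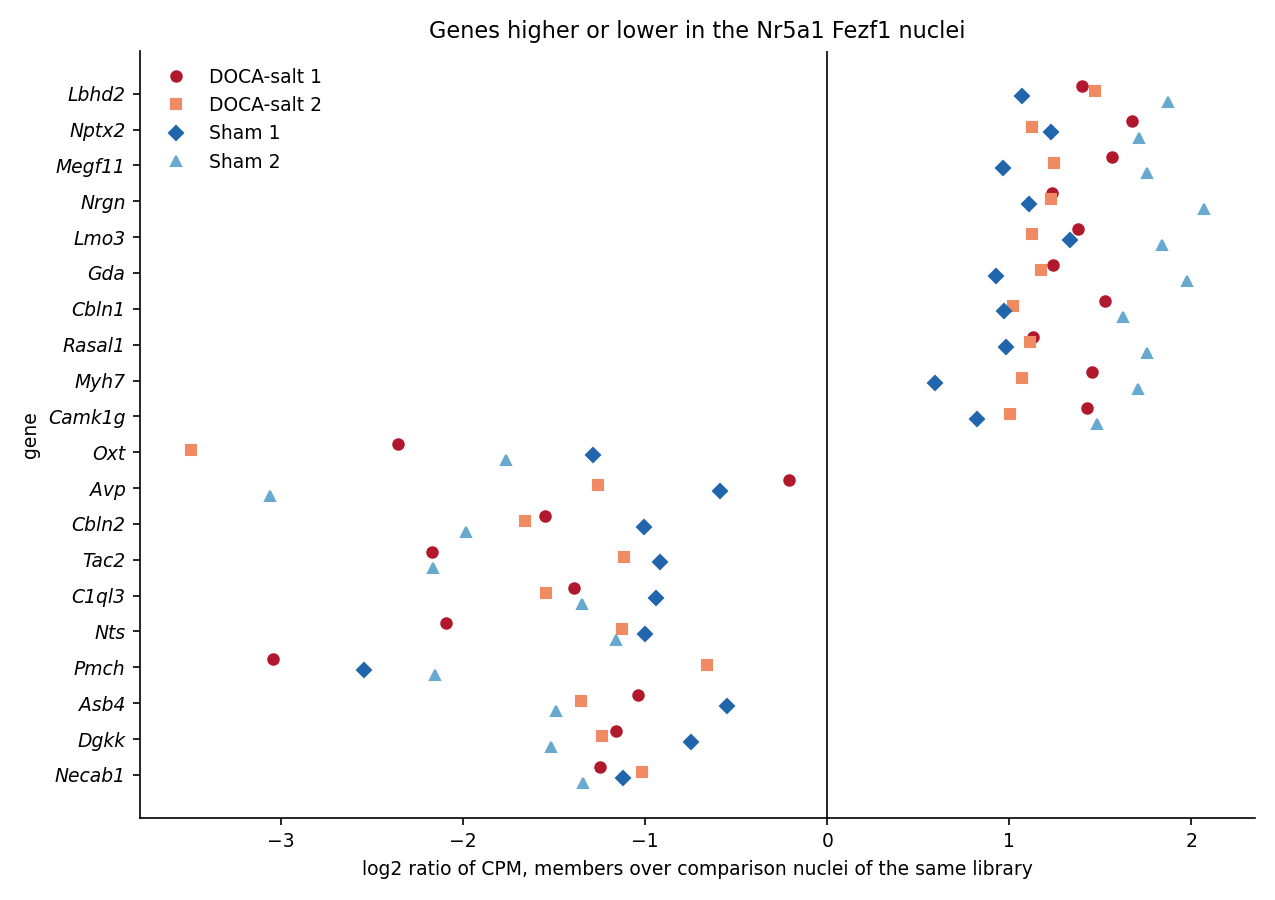
Each point is the log2 ratio of CPM in members over CPM in the comparison nuclei of 1 library, for the 10 genes of largest difference on each side. All 4 libraries lie on the same side of 0 for each of the 20 genes, and Avp and Pmch spread most.

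Transcription factors of the ventromedial nucleus were mostly higher in members. Of 8 listed factors, all tested, 6 were higher in members and 1 lower, with a median log2 difference of 0.81 against -0.0038 over all genes, of which 9.21% were higher and 7.01% lower. Nr0b1, the orphan receptor Dax1 that partners SF-1, was at 13.0, 8.0, 8.89 and 8.83 CPM in members and 3.06, 2.91, 2.19 and 1.89 CPM in comparison nuclei, a log2 difference of 1.92 (SE 0.2, adjusted p = 4.92e-06). Sox14, a repressor of the SoxB2 group, was at 21.9, 11.3, 16.6 and 29.3 CPM against 10.4, 4.78, 8.06 and 9.02 CPM, a log2 difference of 1.35. Nr2f2, COUP-TFII, was at 160, 170, 132 and 229 CPM against 38.0, 134, 97.1 and 81.3 CPM, a difference of 1.06. Nkx2-1, which patterns the basal hypothalamus, and Nkx2-2 were higher by 0.56 and 0.52. The call of Nkx2-2 held in 9 of 13 alternatives. Foxp2, the factor that was lower, differed by -1.05.

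Genes known to mark subdivisions of the nucleus did not move alike. Of 6 dorsomedial genes, 3 were higher, namely Gda, Bdnf and Adcyap1, and Foxp2 was lower. Of 11 ventrolateral genes, 1 was higher and 6 were lower, with a median of -0.72, where 9.21% of all tested genes were higher and 7.01% lower. The lower ones were Esr1, Cckar, Rprm, Nup62cl, Dlk1 and Npy2r. The call of Cckar held in 8 of 13 alternatives, with adjusted p up to 0.701, and that of Nup62cl in 6 of 10, with adjusted p up to 0.392. Esr1, the oestrogen receptor alpha, was at 9.39, 7.87, 15.1 and 14.1 CPM in members and 35.3, 11.9, 30.1 and 44.1 CPM in comparison nuclei, a log2 difference of -1.23 (SE 0.152, adjusted p = 2.79e-05). Dlk1, a Notch-family ligand of secretory neurons, was at 228, 187, 229 and 181 CPM against 285, 332, 332 and 436 CPM, with no overlap between the classes. Oligodendrocyte nuclei held Dlk1 at 263, 304, 321 and 334 CPM and Esr1 at 10.9, 14.4, 32.0 and 31.5 CPM. Members lay below these levels in every library for both genes, and the members' levels read as background. The comparison nuclei lay above them for Dlk1 in every library and below them for Esr1 in DOCA-salt 2 and Sham 1.

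Of 4 listed brain targets of SF-1, 3 passed the filter on low counts and Bdnf and Cnr1 were higher, against 9.21% of all tested genes. Bdnf, a neurotrophin by which ventromedial neurons restrain feeding, was at 83.6, 53.1, 74.2 and 77.8 CPM in members and 42.4, 29.5, 42.5 and 37.1 CPM in comparison nuclei, a log2 difference of 0.96 (SE 0.0693, adjusted p = 1.75e-07). All 4 member values of Bdnf exceeded all 4 comparison values. Cnr1, the cannabinoid receptor CB1, was at 156, 182, 216 and 225 CPM against 99.0, 124, 152 and 118 CPM, a difference of 0.70 (SE 0.067). Oligodendrocyte nuclei held Cnr1 at 153, 92.4, 132 and 79.8 CPM. In DOCA-salt 1 this was near the members' level and above that of the comparison nuclei, and in the other libraries it was below both. Of 8 steroidogenic genes that SF-1 drives in gonad and adrenal, 3 passed the filter, and Nr0b1 and Scarb1, the HDL receptor that takes up cholesterol, were higher, against the same 9.21%.

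The letters CAAGGTCA, the half-site that SF-1 binds, were sought on both strands of the 300 bases around each gene start (250 before, 50 after) in RefSeq promoters of GRCm38.p6. They occurred in 1.04% of the 1346 promoters matched to genes higher in members, in 0.794% of the 1007 matched to lower genes, in 1.10% of those matched to tested genes and in 1.56% of all 32851. The share in higher genes was thus close to that in tested genes. For the 3 genes with the largest difference among those with a match and higher in every library, the stretch holding the half-site is shown with the half-site in capitals, as read on the plus strand, which is the strand of the gene in each case. The capitals read CAAGGTCA in Syt6 and its reverse complement, TGACCTTG, in 6820408C15Rik and Syt2, where the half-site lies on the opposite strand. The genes are 6820408C15Rik (chr2:152436373-152436440), Syt2, a fast synaptic calcium sensor (chr1:134646415-134646482), and Syt6, a further synaptotagmin (chr3:103575041-103575108). A match is a description of the letters and not of a bound site. Syt2 was at 15.2, 62.0, 54.5 and 26.2 CPM in members and 12.7, 35.2, 27.2 and 14.8 CPM in comparison nuclei. Members with Nr5a1 but no Fezf1 UMI held it at 0, 35.8, 15.4 and 15.9 CPM. Members with Fezf1 but no Nr5a1 UMI held it at 15.8, 102, 86.2 and 29.3 CPM.
6820408C15Rik: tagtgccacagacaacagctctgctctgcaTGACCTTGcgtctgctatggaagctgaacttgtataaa
Syt2: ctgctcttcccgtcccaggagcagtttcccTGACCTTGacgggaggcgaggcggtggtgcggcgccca
Syt6: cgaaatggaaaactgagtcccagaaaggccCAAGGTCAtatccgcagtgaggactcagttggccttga

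Members had less of the GABA genes than other Slc17a6 nuclei. Of 12 transmitter genes, 8 passed the filter, none was higher and 6 were lower, against 7.01% of all tested genes, including Gad1, Gad2 and Slc32a1, which make and package GABA. Gad2 was at 206, 290, 337 and 224 CPM in members, 304, 494, 579 and 545 CPM in comparison nuclei and 470, 765, 659 and 571 CPM in oligodendrocyte nuclei. The log2 difference between members and comparison nuclei was -0.83 (SE 0.0767, adjusted p = 1.59e-06), and Slc32a1 differed by -0.86 (SE 0.0637). The Gad2 level was below that in oligodendrocyte nuclei, which should lack the gene, in each library, in members and in comparison nuclei alike, so the difference lies between levels under the background. Thinned to 2000 UMIs, Gad2 had a UMI in 23.5%, 33.0%, 41.0% and 28.6% of members and in 55.1%, 73.4%, 53.8% and 55.1% of oligodendrocyte nuclei, so Gad2 in members reads as background.

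Among 27 neuropeptide genes, 25 passed the filter, 4 were higher in members and 16 lower, against 9.21% and 7.01% of all tested genes, with a median of -0.58. The higher ones were Adcyap1, Bdnf, Pdyn and Nmu. Adcyap1 encodes PACAP, a peptide of ventromedial glutamatergic neurons, and was at 161, 118, 94.3 and 117 CPM in members and 70.9, 53.2, 61.6 and 42.4 CPM in comparison nuclei. Its log2 difference was 1.16 (SE 0.0929, adjusted p = 3.49e-07), with no overlap between the classes. Thinned to 2000 UMIs, Adcyap1 had a UMI in 26.3%, 20.8%, 17.9% and 20.7% of members, in 12.8%, 10.7%, 10.1% and 7.6% of comparison nuclei and in 3.8%, 5.7%, 7.7% and 2.3% of oligodendrocyte nuclei. Pdyn, prodynorphin, was higher by 0.31 (SE 0.0626), and Nmu, neuromedin U, was at 4.47 CPM or less in every library.

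Of 23 metabolic and glucose-sensing genes, 22 were tested, 6 were higher and 7 lower, against 9.21% and 7.01% of all tested genes. The lower ones were Npy2r, Ghsr, Cckar, Htr2c, Ramp3, Calcr and Irs4. The receptor genes of leptin and insulin, Lepr and Insr, were not among the genes that passed. The higher ones included Abcc8, the sulfonylurea receptor of the ATP-sensitive potassium channel, a part of neuronal glucose sensing. Abcc8 was at 16.5, 17.5, 10.8 and 13.6 CPM in members and 13.6, 15.1, 7.07 and 9.02 CPM in comparison nuclei, a log2 difference of 0.42 (SE 0.128, edgeR adjusted p = 0.0346) that was positive in each library, and the classes overlapped across libraries. The call of Abcc8 held in 6 of 13 alternatives, with adjusted p from 0.0208 to 0.722, and was lost without DOCA-salt 1, Sham 1 or Sham 2. The orexin receptors Hcrtr1 and Hcrtr2 were higher by 0.95 and 0.55, and Cckbr, the cholecystokinin B receptor, by 1.24. Hcrtr1 was at 32.2, 30.3, 20.5 and 21.2 CPM in members and 12.9, 17.2, 13.0 and 11.2 CPM in comparison nuclei. All member values of Hcrtr1 lay above all comparison values.

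Counts among receptors and targets of corticosteroids were small and stand against 9.21% of all tested genes higher and 7.01% lower in members. Of 8 steroid receptors and enzymes, 6 were tested, and Nr3c1, the glucocorticoid receptor, was higher in members by 0.28 on the log2 scale (SE 0.0588, adjusted p = 0.00294) while Esr1 was lower. Of 9 corticosteroid-responsive genes, Klf9 was higher by 0.33 and none was lower. Of 12 immediate early genes, Egr1 and Junb were higher, by 0.60 and 0.51, and Nr4a2 was lower, so 3 of 12 passed against 16.2% of all tested genes in either direction. The call of Junb held in 8 of 13 alternatives and those of Egr1 and Nr4a2 in 10 of 13. Of 10 renin-angiotensin genes, 6 were tested and 1 was lower, Agt, which is also on the astrocyte list.

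Markers of astrocytes and vessels were lower in members than in the comparison nuclei. All 6 astrocyte markers and all 3 endothelial markers were lower, 3 of 5 oligodendrocyte markers were lower, and none of these was higher. Of all tested genes 7.01% were lower and 9.21% higher. None of the 5 microglia and 3 oligodendrocyte precursor markers passed in either direction. The summed level of the 5 oligodendrocyte markers in members was 638, 1324, 1955 and 1681 CPM, and none was at 0. The summed level of the 3 GABA markers was 398, 568, 567 and 387 CPM. Scrublet scores were higher in members, since 19.6%, 29.4%, 2.31% and 14.1% of them fell among the top-scoring nuclei against 8.25%, 15.1%, 1.77% and 6.21% of kept nuclei. Leaving those nuclei out gave 2351 genes between the classes, of which 2054 were shared.

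Members that held Nr5a1 without Fezf1 were set against members that held Fezf1 without Nr5a1. This split uses the sparse gate counts of the rule itself. The calls therefore describe the 2 parts and do not show that they are separate kinds of nuclei. Of 9680 genes tested with the library as a block, 39 were higher in the Nr5a1-only nuclei (0.403%) and 55 in the Fezf1-only nuclei (0.568%). The count of 94 in both directions was 40 without DOCA-salt 1, 39 without DOCA-salt 2 and 11 with DESeq2. The parts moved in 1 direction in all libraries in 16.1% of tested genes. The ventromedial markers Lbhd2, Nptx2 and Rasgrf2, supplied with the rule, were all higher in the Nr5a1-only nuclei. Of 17 tested neuropeptide genes, 7 were higher in the Fezf1-only nuclei and 1, Pdyn, in the Nr5a1-only nuclei. Of 3 tested paraventricular markers, Otp and Avp were higher in the Fezf1-only nuclei. Avp was nevertheless lower there in Sham 1 (46.9 against 67.6 CPM) and Sham 2 (38.1 against 41.4 CPM). Cartpt, also among the 7, was lower there in Sham 2 (69.0 against 103.5 CPM). The calls of Sst and Cartpt, both of the 7, held in 5 and 6 of 10 alternatives.

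The named genes of the Nr5a1-only nuclei were Acvr1c, Megf11, Nptx2, Prox1, Cmbl, Efnb1, Pdyn, Myh7, Lbhd2 and Ass1. The calls of Prox1 and Efnb1 held in 4 and 3 of 9 alternatives. Acvr1c, the activin receptor ALK7, was at 109, 81.3, 49.2 and 76.4 CPM in Nr5a1-only nuclei and 50.7, 28.2, 18.6 and 44.4 CPM in Fezf1-only nuclei, a log2 difference of 1.19 (SE 0.17, adjusted p = 4.17e-05). Nptx2 was at 172, 92.4, 61.4 and 95.5 CPM against 71.8, 45.6, 28.4 and 57.1 CPM, a difference of 1.01 (SE 0.142). Within each library the Nr5a1-only value was the higher one, though Sham 1 values overlapped the other libraries. Lbhd2 was at 163, 269, 141 and 158 CPM against 122, 131, 74.2 and 121 CPM. The Fezf1-only nuclei were still above the comparison nuclei in Lbhd2, which held 49.1, 80.8, 50.5 and 37.7 CPM, in each library.

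The named genes of the Fezf1-only nuclei included Trh, Nrn1, Otp, Syt2, Tac1, Sncg, Penk, A830018L16Rik and Mag. Trh, thyrotropin-releasing hormone, was at 13.7, 895, 366 and 87.2 CPM in Fezf1-only nuclei and 2.96, 85.5, 33.8 and 31.8 CPM in Nr5a1-only nuclei, a log2 difference of -3.06 (SE 0.179, adjusted p = 2.77e-14). Otp, a homeobox factor of paraventricular and neighbouring neurons, was at 44.3, 157, 92.8 and 49.2 CPM against 14.8, 29.0, 43.0 and 30.3 CPM. Tac1, the substance P gene, was at 344, 251, 307 and 136 CPM against 240, 66.2, 79.9 and 38.2 CPM. All 3 genes were higher in the Fezf1-only nuclei of every library, and Trh differed most between libraries. Oligodendrocyte nuclei held Trh at 23.35, 65.2, 63.9 and 66.3 CPM and Otp at 56.0, 52.9, 50.2 and 47.8 CPM. In DOCA-salt 1 the Fezf1-only nuclei lay below these levels for both genes. In the other libraries they lay above them, narrowly for Otp in Sham 2. Oligodendrocyte nuclei held Tac1 at 274, 66.7, 129 and 58.5 CPM, below the Fezf1-only nuclei of every library. The part of free RNA here was not tested. Nuclei with both genes had Trh at 8.41, 86.5, 153 and 32.1 CPM, between or near the other parts. Penk, the enkephalin gene, and Nrn1, neuritin, followed the same direction, with log2 differences of -1.37 and -2.11. Penk was at 72.9, 62.7, 135 and 76.9 CPM in Fezf1-only nuclei and 93.4, 73.7, 102 and 47.8 CPM in oligodendrocyte nuclei. Mag, a myelin gene, was among the 2 of 5 oligodendrocyte markers higher in Fezf1-only nuclei, and their part in the other differences was not tested.

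Thinning to 2000 UMIs left 8 genes past the threshold, all among the 94, and Trh, Tac1 and Nr2f2 were of these. The smallest sums held 325501 UMIs, and the Nr5a1-only part had 21 nuclei in Sham 1.

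**Figure D3:**
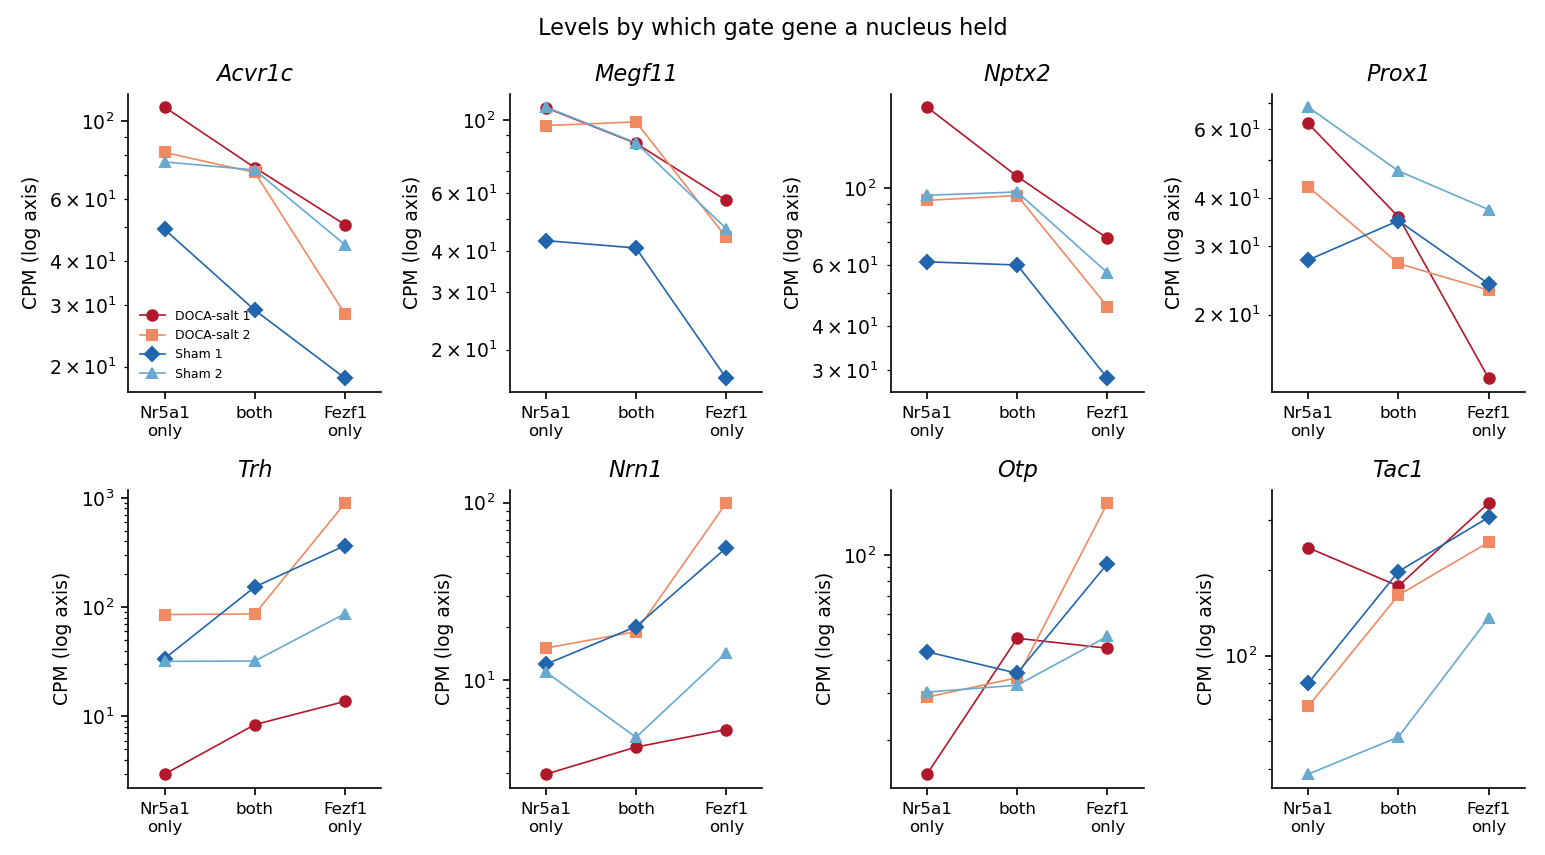
CPM on a log axis in members with Nr5a1 only, with both genes and with Fezf1 only, 1 line per library. Acvr1c, Megf11, Nptx2 and Prox1 are higher in the Nr5a1-only than in the Fezf1-only nuclei of each library, and Trh, Nrn1, Otp and Tac1 are lower.

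An Esr1 UMI was present in 149 members, namely 15, 57, 32 and 45 in the 4 libraries, or 5.88%, 6.79%, 18.5% and 12.4%. In oligodendrocyte nuclei the shares were 3.8%, 4.7%, 14.8% and 9.7%, and after thinning to 2000 UMIs Esr1 had a UMI in 1.2%, 1.0%, 4.0% and 3.1% of members and 1.3%, 3.0%, 3.8% and 5.7% of oligodendrocyte nuclei. The thinned share of members was at or below the oligodendrocyte share in 3 of the 4 libraries and near it in Sham 1, so the Esr1 shares read as background. Members with an Esr1 UMI were deeper in 3 libraries, with median UMIs of 16214, 12107 and 15051 against 6765, 6964 and 9536 in DOCA-salt 1, DOCA-salt 2 and Sham 2, and shallower in Sham 1, with 13836.5 against 15879.

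Members with and without an Esr1 UMI nonetheless differed in 123 of 10792 genes, 70 higher (0.649%) and 53 lower (0.491%). The parts moved in 1 direction in all libraries in 17.6% of tested genes. All 5 tested arcuate peptide markers and all 3 GABA markers were higher. The calls of Npy, Tac2 and Slc32a1 held in 3 of 9, 4 of 8 and 5 of 9 alternatives, and Tac2 was lower with Esr1 in DOCA-salt 2, at 15.5 against 32.1 CPM. Markers of other cells moved with the split too, since all 3 tested microglia markers were higher in sign, with a median of 0.84 and Cx3cr1 past the test, and all 6 astrocyte markers were higher in sign, with a median of 0.21 and none past it. Of the 5 RNA quality genes Meg3 was lower, by a log2 difference of -0.20, and the part of these cells and of RNA quality was not tested. Pomc, the precursor of melanocortins, was at 370, 210, 586 and 201 CPM in members with Esr1 and 173, 16.8, 103 and 132 CPM in members without, a log2 difference of 1.86 (SE 0.168, adjusted p = 4.10e-13). Agrp, the agouti-related peptide, was at 318, 2.82, 52.3 and 68.4 CPM against 105, 0.589, 37.4 and 28.8 CPM. Gal, galanin, was at 90.4, 70.5, 220 and 108 CPM against 17.0, 55.5, 67.3 and 36.8 CPM. In each library the nuclei with Esr1 had the higher value of all 3 peptides. Oligodendrocyte nuclei held Pomc at 201, 22.0, 79.1 and 250 CPM, and the part of free RNA in this comparison was not tested. Gad2 was at 340, 374, 417 and 429 CPM against 191, 281, 319 and 184 CPM, with no overlap between the parts, and both parts were below the 470, 765, 659 and 571 CPM of oligodendrocyte nuclei, so these Gad2 levels read as background. Ghrh, growth hormone-releasing hormone, had a difference of 3.38 but was higher in 3 of 4 libraries.

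Genes lower in the members with Esr1 included Glra1, Slit3, an axon guidance ligand, Trh, Cbln1, Megf11, Gda, Rasgrf2, Adcyap1 and Nr2f2. The calls of Adcyap1, Megf11 and Nr2f2 held in 2, 3 and 4 of 9 alternatives, and that of Gda in 9 of 10. Gda was at 284, 237, 283 and 473 CPM with Esr1 and 578, 290, 352 and 695 CPM without, a log2 difference of -0.50 (SE 0.076, adjusted p = 1.28e-05). Cbln1 was at 112, 220, 94.2 and 102 CPM against 188, 296, 161 and 165 CPM, a difference of -0.58 (SE 0.0943). Both genes were lower with Esr1 in 4 of 4 libraries. Of the 6 tested ventrolateral genes 4 were higher in sign, and Dlk1 was the single one that passed, where 0.649% of all tested genes were higher and 0.491% lower. Tac1, Pgr and the other tested members of that list did not pass. After thinning to 2000 UMIs, 15 genes passed, all among the 123, including Pomc, Gad2 and Gda. Leaving out the highest doublet scores gave 83 genes, of which 69 were shared. Without Sham 2 the count was 28.

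**Figure D4:**
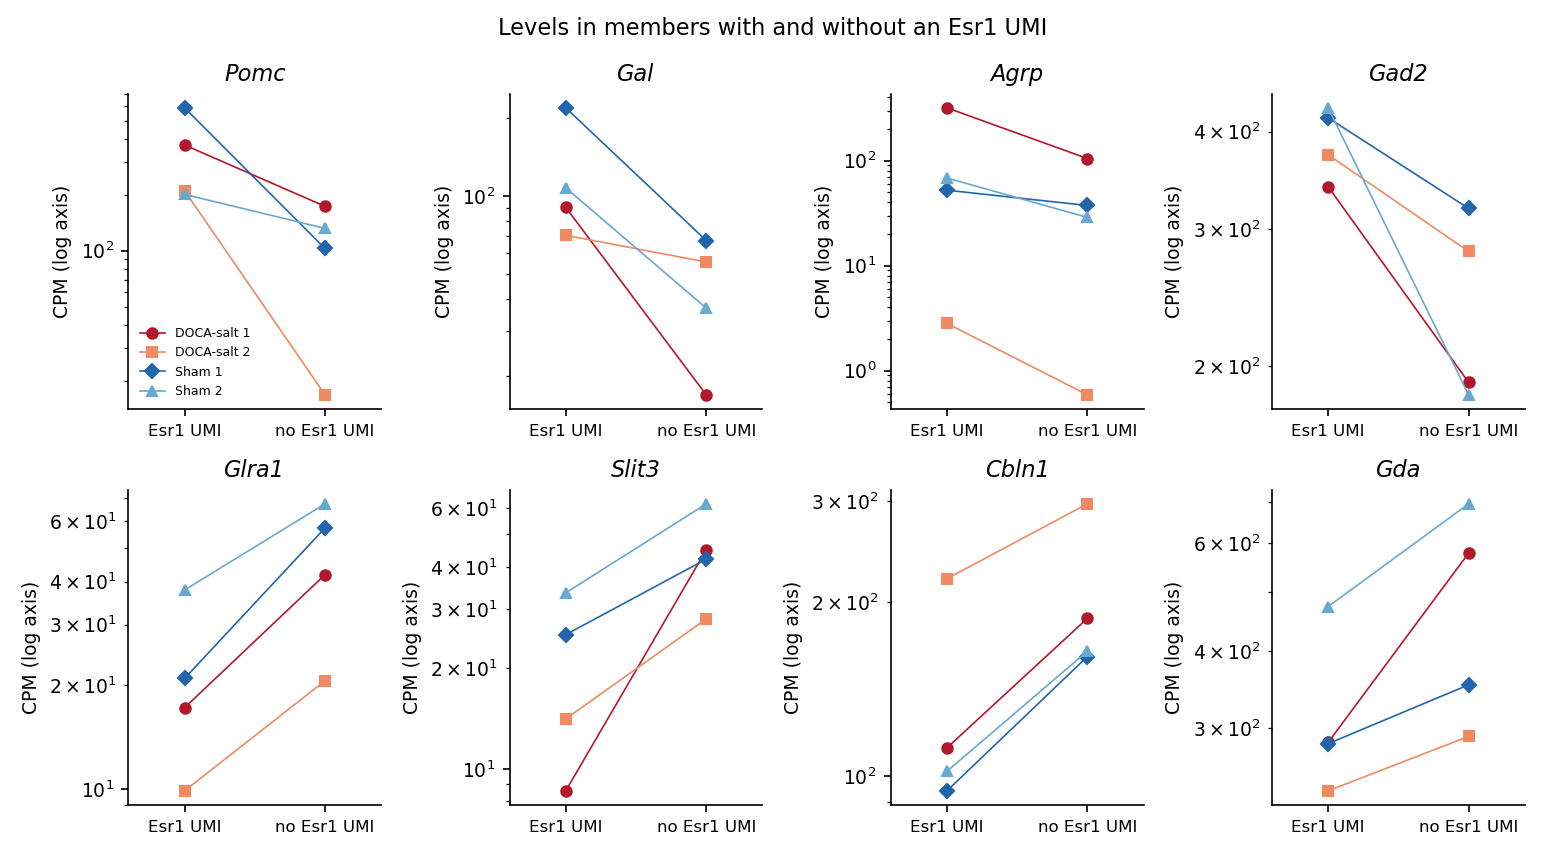
CPM on a log axis in members with and without an Esr1 UMI, 1 line per library. Pomc, Gal, Agrp and Gad2 are higher with Esr1 in each library, and Glra1, Slit3, Cbln1 and Gda are lower.

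DOCA-salt and Sham were then compared within the members, on 4 sums of UMI counts. Of 12553 genes tested, 2 passed at FDR under 0.05 (0.0159%), both lower in DOCA-salt, and 1207 had an unadjusted p under 0.05. The libraries of the groups did not overlap in 42.6% of genes. The median log2 difference over all genes was 0.017. In the 9767 comparison nuclei no gene of 15171 passed in edgeR (0%), with 1396 at an unadjusted p under 0.05 and 80 passing in DESeq2.

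Bc1, a short brain cytoplasmic RNA made by RNA polymerase III, was at 284 and 332 CPM in members of DOCA-salt 1 and 2 and at 2115 and 3164 CPM in members of Sham 1 and 2. It was lower by a log2 difference of -3.14 (SE 0.275, adjusted p = 0.015). Hist1h1e, a linker histone gene, was at 6.26 and 4.67 CPM in DOCA-salt and 34.0 and 27.2 CPM in Sham, a difference of -2.59 (SE 0.28, adjusted p = 0.0439). Both DOCA-salt libraries lay far below both Sham libraries in both genes.

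Nuclei of other kinds showed the same order of libraries. Bc1 (chr7:144914470-144914637 in GRCm38) was at 208, 295, 2213 and 3038 CPM in the comparison nuclei and at 191, 349, 2284 and 3799 CPM in oligodendrocyte nuclei. Hist1h1e (chr13:23620629-23622558) was at 11.3, 4.05, 36.4 and 27.3 CPM in the comparison nuclei and at 10.9, 3.55, 39.6 and 30.9 CPM in oligodendrocyte nuclei. In the comparison nuclei the log2 difference was -3.42 (SE 0.302, adjusted p = 0.0795) for Bc1 and -2.13 (SE 0.433, adjusted p = 0.533) for Hist1h1e. The difference of the treatment effect between members and comparison nuclei was 0.30 (SE 0.104, adjusted p = 1) for Bc1 and -0.18 (SE 0.295, adjusted p = 1) for Hist1h1e. Over 14708 genes that difference passed for 1 gene (0.0068%), Oxt, and 30.8% of genes had effects that did not overlap. Bc1 stood in a list of 5 genes that track RNA quality, all of which were lower in DOCA-salt in sign, with a median of -0.45. Their summed level was 59387, 32057, 60067 and 62261 CPM, led by Malat1, and the part of RNA quality or free RNA in the Bc1 difference was not tested.

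**Figure D5:**
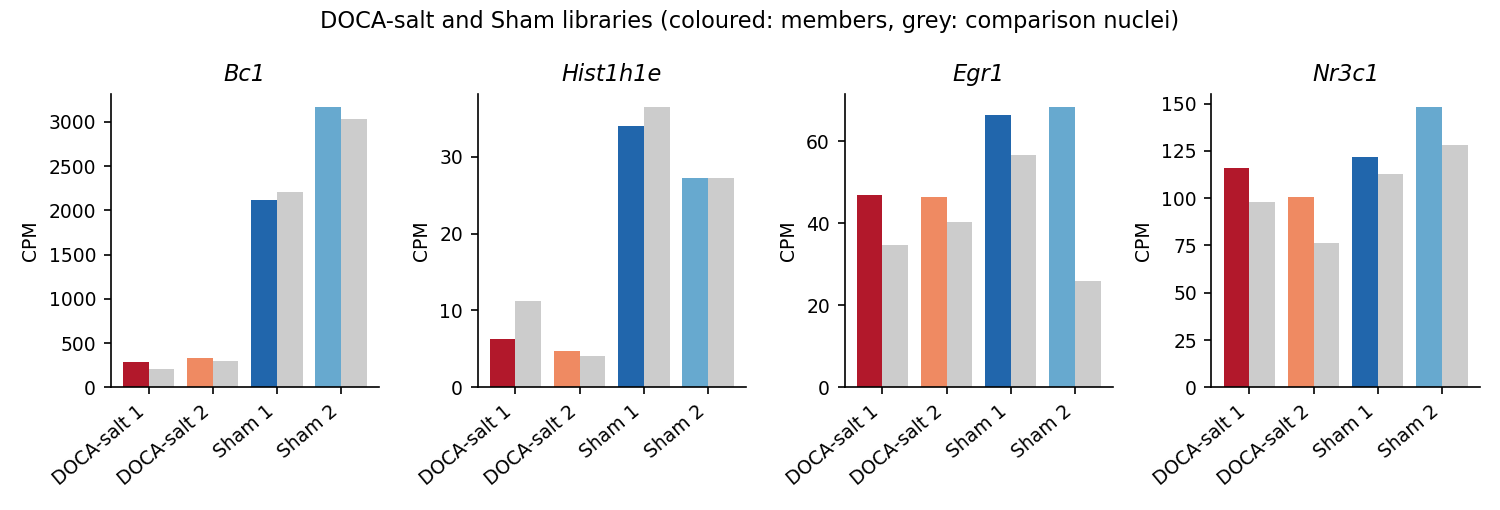
CPM in members (coloured) and comparison nuclei (grey) of each library. Bc1 and Hist1h1e are low in both DOCA-salt libraries in both classes, and Egr1 and Nr3c1, which did not pass the test, differ by much less.

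No gene of the corticosteroid, renin-angiotensin or immediate early lists passed in members. All 6 tested steroid receptors and enzymes were lower in DOCA-salt in sign, with a median log2 difference of -0.41. Nr3c1 was at 116 and 101 CPM in DOCA-salt and 122 and 148 CPM in Sham, a difference of -0.37 (SE 0.181, adjusted p = 0.554). Nr3c2, the mineralocorticoid receptor, was at 10.3 and 13.1 CPM against 16.6 and 16.2 CPM, a difference of -0.50 (SE 0.262, adjusted p = 0.581). In both receptors the groups did not overlap, as in 42.6% of all genes, and the differences were not distinguishable from the spread between libraries after adjustment.

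Of 8 tested corticosteroid-responsive genes, 4 were higher and 4 lower in sign, with a median of 0.053. All 4 tested renin-angiotensin genes were higher in sign, with a median of 0.27, and none passed. Of 11 tested immediate early genes, 5 were higher in sign. Egr1, an activity-induced transcription factor, was at 47.0 and 46.4 CPM in DOCA-salt and 66.5 and 68.2 CPM in Sham, a difference of -0.58 (SE 0.173, adjusted p = 0.441). Cnr1 was at 156 and 182 CPM against 216 and 225 CPM, a difference of -0.43 (SE 0.179, adjusted p = 0.512), and Adcyap1 at 161 and 118 CPM against 94.3 and 117 CPM. None of the listed ventromedial factors, dorsomedial genes or ventrolateral genes passed.

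The signs of marker genes of other cells went in both directions by treatment, and no gene of the lists given here passed the test. All 5 oligodendrocyte markers were lower in sign in members of DOCA-salt, with a median of -0.58. All 5 microglia markers were lower in sign too, with a median of -0.88, and 1 of 6 astrocyte markers was higher in sign. Of all 12553 genes tested, 6539 were higher in sign. The summed microglia markers were at 35.8, 32.3, 65.7 and 47.7 CPM, led by C1qa in DOCA-salt 1, Sham 1 and Sham 2. The lateral hypothalamic markers Pmch and Hcrt were summed at 1.34, 2566, 16.6 and 9.30 CPM, which placed DOCA-salt 2 apart. All 3 tested striatal markers were higher in DOCA-salt in sign, with a median of 1.03, as were 3 of 4 tanycyte, 2 of 3 endothelial and 2 of 3 oligodendrocyte precursor markers.

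The treatment count rose when any library was left out, and both genes passed each time. Without DOCA-salt 1 it was 1314 genes, without DOCA-salt 2 107, without Sham 1 12 and without Sham 2 11, where the lone library of a group was assumed to vary like the others. With 1 library of each number as a replicate block 6 genes passed. Bc1 passed under all 14 alternatives and Hist1h1e under all 13 that gave it a value, with adjusted p up to 0.0133 and 0.041.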

How the data were processed

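Single nuclei from ARC punches were sequenced with the 10x Genomics method, and per the labels the authors used Cell Ranger 3.0.1 on mm10. The deposited matrices hold raw UMI counts per gene and barcode, not normalized. A nucleus was kept if it showed over 200 genes but under 7000, under 25000 UMIs, and a mitochondrial part under 15%. The members, gene lists and markers were chosen with earlier results of these data known. Libraries shared 5 to 49 barcodes in pairs and no member.

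Counts were summed per library and class and tested with edgeR 4.0.16 (TMM, filterByExpr, glmQLFit, glmQLFTest; R 4.3.3), with the library as a block for contrasts within libraries and Benjamini-Hochberg adjustment over all genes tested. Library means and CPM came from the same sums. Genes named were the 10 of largest difference on each side with FDR under 0.05, average log2 CPM of at least 5 and the same direction in every library or no overlap between groups, with genes of the fixed lists as examples; some of these genes are not reported here. DESeq2 1.42.0, RLE size factors, no filter, leaving out each library, thinning to 2000 UMIs, stricter gates and removal of the highest Scrublet scores (scanpy 1.11.5, Python 3.11.15) were the alternatives. Scrublet's own threshold marked 0, 0, 2 and 0 nuclei and was not used. On simulated data with log2 changes of 2, the treatment test in members recovered 94.4% of changed genes and the class test 99.5%. The interaction test recovered 83.8%. False calls numbered 7, 10 and 10 in these tests. Counts were drawn at the dispersion fitted to the data and smaller changes were not simulated, so their recovery is not known. Gene promoters are RefSeq's for GRCm38.p6, and 965 of the higher genes matched by symbol. The pool is the replicate, so p-values of the treatment tests set a difference against the spread between pools. In tests with the library as a block they set it against the variation of differences within libraries. Same-numbered libraries did not deviate together (correlation -0.12), so numbers were not taken as pairs.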

Additional observations from a re-analysis of the deposited data

Results flagged for a closer look

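Oxt was the single gene of 14708 whose treatment difference differed between members and comparison nuclei in edgeR's interaction test (0.0068%), with a log2 value of -1.91 (adjusted p = 2.62e-05). It stood at 1.34 and 155 CPM in DOCA-salt members and 76.5 and 157 CPM in Sham members, against 6.87 and 1750 CPM and 187 and 534 CPM in comparison nuclei. The direction held in each alternative, but the value was -0.78 (adjusted p = 1) without DOCA-salt 2 and did not pass with DESeq2, with no upper limit on genes and UMIs or with both Nr5a1 and Fezf1 required. Oligodendrocyte nuclei held 10.9 and 889 CPM of Oxt in DOCA-salt and 60.9 and 693 CPM in Sham. The part of free RNA in this result was not tested.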

How the results depend on the processing

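Each of the 6 counts of genes moved by over 1.5 times under some alternative, and the causes were not tested. With DESeq2 the counts were 50 (treatment in members), 1127 (members against comparison nuclei), 0 (interaction), 80 (treatment in comparison nuclei), 11 (Nr5a1-only against Fezf1-only) and 38 (Esr1). Thinned to 2000 UMIs they were 21, 900, 1, 1, 8 and 15, where the interaction held its 1 gene. Without a filter of low counts the treatment count was 201, the interaction 20, the comparison nuclei 375 and the Nr5a1-only contrast 157. Without the highest doublet scores the treatment count was 4, and with 3 or more gate UMIs it was 11 and the interaction 4. With both Nr5a1 and Fezf1 required the interaction was 0, and without upper limits its 1 gene was another one. Without the library block the counts were 35, 0 and 0 for the class, Nr5a1-only and Esr1 contrasts.

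Leaving out each library gave 11 to 1314 genes for treatment in members, 1445 to 1824 for the class, 2 to 67 for the interaction, 0 to 747 for treatment in comparison nuclei, 39 to 104 for Nr5a1-only and 28 to 90 for Esr1. The Hist1h1e interaction ranged from -0.80 without DOCA-salt 2 to 0.25 without DOCA-salt 1. The DOCA-salt share was higher by 0.228 percentage points among Slc17a6 nuclei and by 0.506 when thinned before the gate, and the difference was -7.71 points without upper limits.

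With the replicate number as a block, 6 genes passed for treatment in members and 13 in comparison nuclei, and with crossed numbers 118 and 112, an alternative chosen after seeing the data. The numbers were not taken as pairing.

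Of 1414 values of single named genes under the alternatives, 1136 stayed on their side of the threshold, 264 lost and 13 gained it in the same direction, and 1 reversed.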
